A study of Mus musculus with 10 samples.

Results

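Imprinted genes are expressed mainly or only from the copy inherited from 1 parent, and 43 mouse genes known for this were described here across embryonic stem cells, the hepatocyte-like cells made from them, and adult hepatocytes. The 43 genes are a list of named genes in 17 loci. Of them, 22 are classed as expressed from the paternal copy and 18 from the maternal copy. The other 3 (Grb10, Gnas and Blcap) are expressed from either copy depending on tissue, promoter or transcript. The class names the copy where the gene is imprinted. For some this holds only in certain tissues, such as neurons for Ube3a, and need not hold in the cells used here. An array transcript cluster, the set of probes that reads 1 transcript or a group of overlapping ones, was used for a gene where its annotation gave exactly 1 gene symbol, and for a gene with several such clusters the one with the highest mean over the 10 arrays was taken. By this rule 38 of the 43 genes were measured, of 22180 genes in all: 19 paternally expressed, 16 maternally expressed and 3 of the others. H19, Rtl1, Mirg and Snrpn were read only by clusters annotated with a further gene and are given with both names. Zrsr1 had no annotated cluster and was not analysed here. The arrays do not separate the parental copies, so the copy expressed is background knowledge and was not measured.

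The groups were ES_HLC, embryonic stem cells differentiated into cells labelled hepatocyte-like (3 arrays), Ad_Hep, hepatocytes of adult liver (3 arrays), and mESC, undifferentiated mouse embryonic stem cells (4 arrays). All 10 samples carry 1 strain and genotype label, C.FVB-Tg(CAG-luc, GFP)L2G85Chco with the suffix /FathJ, a mouse strain with a luciferase and GFP transgene under the CAG promoter, and 1 passage label, under passage 20, on the hepatocytes too. Nothing in the sources used here gives age, sex, or how many animals or stem cell lines there were. The labels call the arrays of a group biological replicates without saying whether they came from separate cultures or animals, so p-values measure only the spread between these arrays.

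At an imprinted locus, a control region carries DNA methylation on 1 parental copy, set in the germ line, and this mark decides which neighbouring genes are read from which copy. Many loci pair a protein gene with a noncoding RNA from the opposite copy, such as Igf2 with H19, Igf2r with Airn, Cdkn1c with Kcnq1ot1, and Dlk1 with Meg3. In the mouse, many imprinted genes, among them Igf2, H19, Dlk1, Peg3, Mest and Plagl1, are strongly expressed in fetal tissues, liver included, and are turned down after birth. Paternally expressed genes such as Igf2 tend to promote fetal growth, and maternally expressed genes such as Cdkn1c, Igf2r and Phlda2 tend to restrain it.

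Marker genes of cell types separated the groups. Of 7 pluripotency markers (among them Nanog and Sox2), 3 in ES_HLC, 0 in Ad_Hep and 7 in mESC had a mean log2 level of at least 5.5, a level under which 48.8 to 50.5% of all genes lay in each group. Of 10 hepatocyte markers (among them Alb and Ttr), 4 in ES_HLC, 10 in Ad_Hep and 4 in mESC reached 5.5, and the mean of the list was 5.24 to 6.71 on the ES_HLC arrays, against 11.90 to 11.92 on the Ad_Hep arrays, so ES_HLC largely lacked the defining adult markers. The 5 hepatoblast markers (among them Krt18 and Krt8, with Dlk1 itself an imprinted gene) averaged 9.35 to 9.69 in ES_HLC, 6.65 to 6.87 in Ad_Hep and 5.92 to 6.18 in mESC. The 8 stellate cell and fibroblast markers (among them Acta2 and Col1a1) averaged 7.92 to 9.94 in ES_HLC, 6.01 to 6.10 in Ad_Hep and 5.33 to 5.74 in mESC, with 7 of 8 at 5.5 or more in ES_HLC and Lrat under it. Of 6 extraembryonic endoderm markers (among them Lamb1 and Gata6) the list mean was 7.75 to 8.08 in ES_HLC, 6.57 to 6.70 in Ad_Hep and 5.54 to 5.83 in mESC, and 4 cholangiocyte markers (among them Krt19) averaged 7.86 to 8.83 in ES_HLC, 5.18 to 5.36 in Ad_Hep and 6.17 to 6.41 in mESC. Ad_Hep had the highest endothelial (7.72 to 8.05) and macrophage (6.62 to 6.78) means. The part of such cells in the imprinted genes' levels was not tested. In bulk RNA, fewer cells of a type and less RNA per cell cannot be told apart. ES_HLC replicate 3 stood apart from ES_HLC replicates 1 and 2: its hepatocyte markers averaged 6.71 against 5.24 and 5.68, its stellate and fibroblast markers 7.92 against 9.94 and 8.96, and its 7 trophoblast markers 6.52 against 5.45 and 5.54. Where leaving it out changed a call of the 38 genes or moved a called value by over 1.5 times, the value without it is given.

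Most of the 38 measured genes stood higher in ES_HLC than in mESC. A second list of 40 measured imprinted or candidate imprinted genes had 6 that rose and 6 that fell in this comparison. That is 30.0% called, against 16.0% of all genes, with a median difference of 0.02. A gene was called higher or lower where limma gave a Benjamini-Hochberg adjusted p under 0.05 over all 22180 genes and a log2 difference of at least 1, a 2-fold difference. In ES_HLC against mESC, 20 of the 38 rose and 0 fell, which is 52.6% called, against 16.0% of all genes called either way, 8.61% higher and 7.35% lower. Without ES_HLC replicate 3, 20 rose and 1, Phlda2, fell. The median difference of the 38 was 1.07, against -0.01 over all genes. The 3 ES_HLC arrays lay above all 4 mESC arrays for 25 of the 38, against 17.2% of all genes, and below all 4 for 1 of them, Copg2, against 17.5% of all genes.

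The rise was found among paternally and maternally expressed genes. In ES_HLC against mESC, 13 of 19 paternally expressed genes rose (68.4%, median difference 1.68), as did 6 of 16 maternally expressed genes (37.5%, median difference 0.29) and 1 of 3 others, Grb10. Of all genes 8.61% were called higher, with a median difference of -0.01. No test of the difference between the shares of paternally and maternally expressed genes was made. The counts by copy leave out clusters annotated with a further gene. Among maternally expressed genes, that of H19 rose by 7.39 and 2 of Meg3 by 1.57 and 2.58. Meg3 was counted by its cluster with 1 symbol, which was not called. Of the Mirg clusters only the one with Mir485 rose, by 1.09. Among paternally expressed genes, Rtl1 clusters rose by up to 1.79 or were not called, and the brighter Snrpn cluster did not rise (-0.12). The paternally expressed genes that rose were Igf2, Peg3, Peg10, Sgce, Dlk1, Mest, Plagl1, Airn, Nnat, Slc38a4, Ndn, Usp29 and Kcnq1ot1. The genes classed as maternally expressed that rose were Zim1, H13, Cdkn1c, Rian, Asb4 and Ube3a, the last imprinted in neurons.

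ES_HLC also stood above the adult hepatocytes. In ES_HLC against Ad_Hep, 19 of 38 rose and 1, Slc22a18, fell, which is 52.6% called, against 23.0% of all genes called either way, 13.9% higher and 9.12% lower. Without ES_HLC replicate 3, 17 rose and 1 fell. The median difference was 0.90, against -0.04 over all genes. Of the paternally expressed genes 13 of 19 rose, and of the maternally expressed ones 5 of 16 rose and 1 fell. The 3 ES_HLC arrays lay above all 3 Ad_Hep arrays for 25 of the 38, against 24.3% of all genes, and below all 3 for 3 of them, against 20.9%.

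The adult hepatocytes stood above mESC at some of these genes and below it at others. In Ad_Hep against mESC, 3 of 38 rose (Slc22a18, H13 and Slc38a4) and 6 fell (Rian, Plagl1, Mest, Impact, Phlda2 and Grb10), which is 23.7% called, against 26.6% of all genes called either way, 11.0% higher and 15.6% lower, so the share called was near that of all genes. The median difference was -0.14, against 0.05 over all genes. The 3 Ad_Hep arrays lay above all 4 mESC arrays for 9 of the 38, against 22.4% of all genes, and below all 4 for 15 of them, against 24.5%. The 3 comparisons share their arrays, so their counts are not independent of each other.

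**Figure D1:**
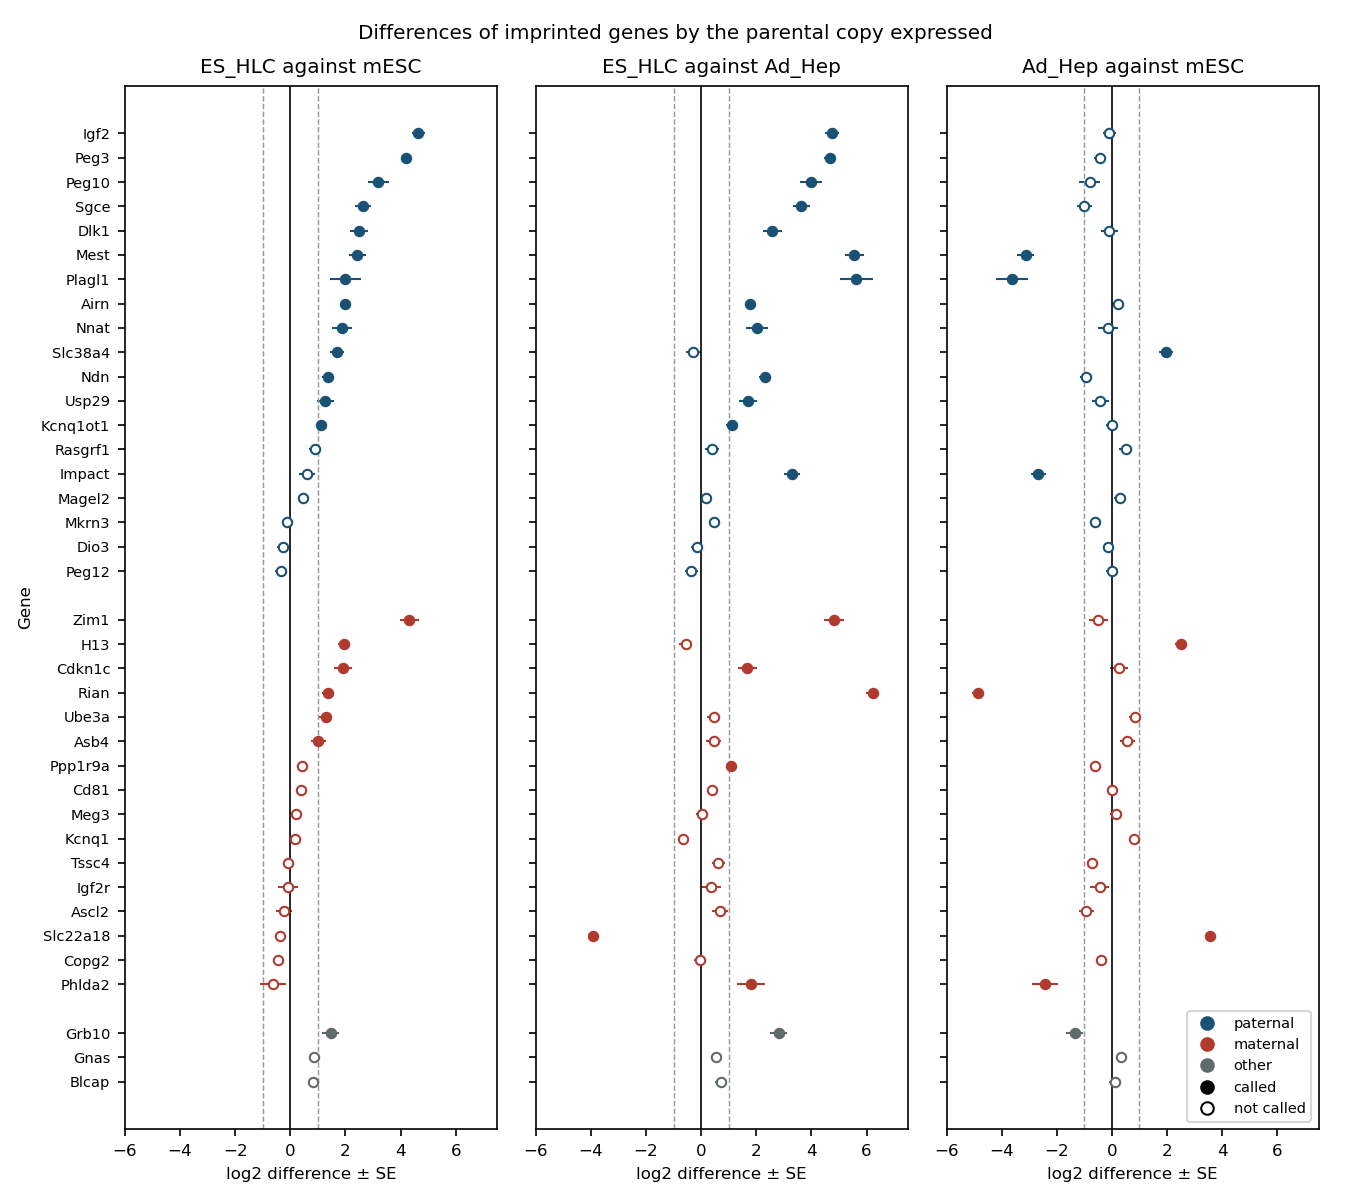
Log2 difference with its standard error (horizontal axis) for each of the 38 imprinted genes (vertical axis), by comparison and grouped by the parental copy expressed; filled points passed the test and dashed lines mark a difference of 1. In ES_HLC against mESC 20 points are filled, all to the right of 0, and in Ad_Hep against mESC 9 are filled, 3 to the right and 6 to the left.

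Over the 3 comparisons the genes fell into a few patterns. The largest set called at all, 12 genes, was higher in ES_HLC than in either other group without a call between Ad_Hep and mESC: Igf2, Peg3, Zim1, Usp29, Peg10, Sgce, Dlk1, Ndn, Airn, Nnat, Cdkn1c and Kcnq1ot1. A further 4, Mest, Rian, Plagl1 and Grb10, were higher in ES_HLC than in mESC and lower in Ad_Hep than in mESC. Phlda2 and Impact (2 genes) were lower in Ad_Hep than in either other group. H13 and Slc38a4 (2 genes) were higher in both ES_HLC and Ad_Hep than in mESC, and Ube3a and Asb4 (2 genes) were called only in ES_HLC against mESC. Ppp1r9a was called only in ES_HLC against Ad_Hep, Slc22a18 was higher in Ad_Hep than in either other group, and 14 genes were called in no comparison. The highest of the 3 group means was that of ES_HLC for 26 of the 38 genes (68.4%), against 27.2% of all genes.

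**Figure D2:**
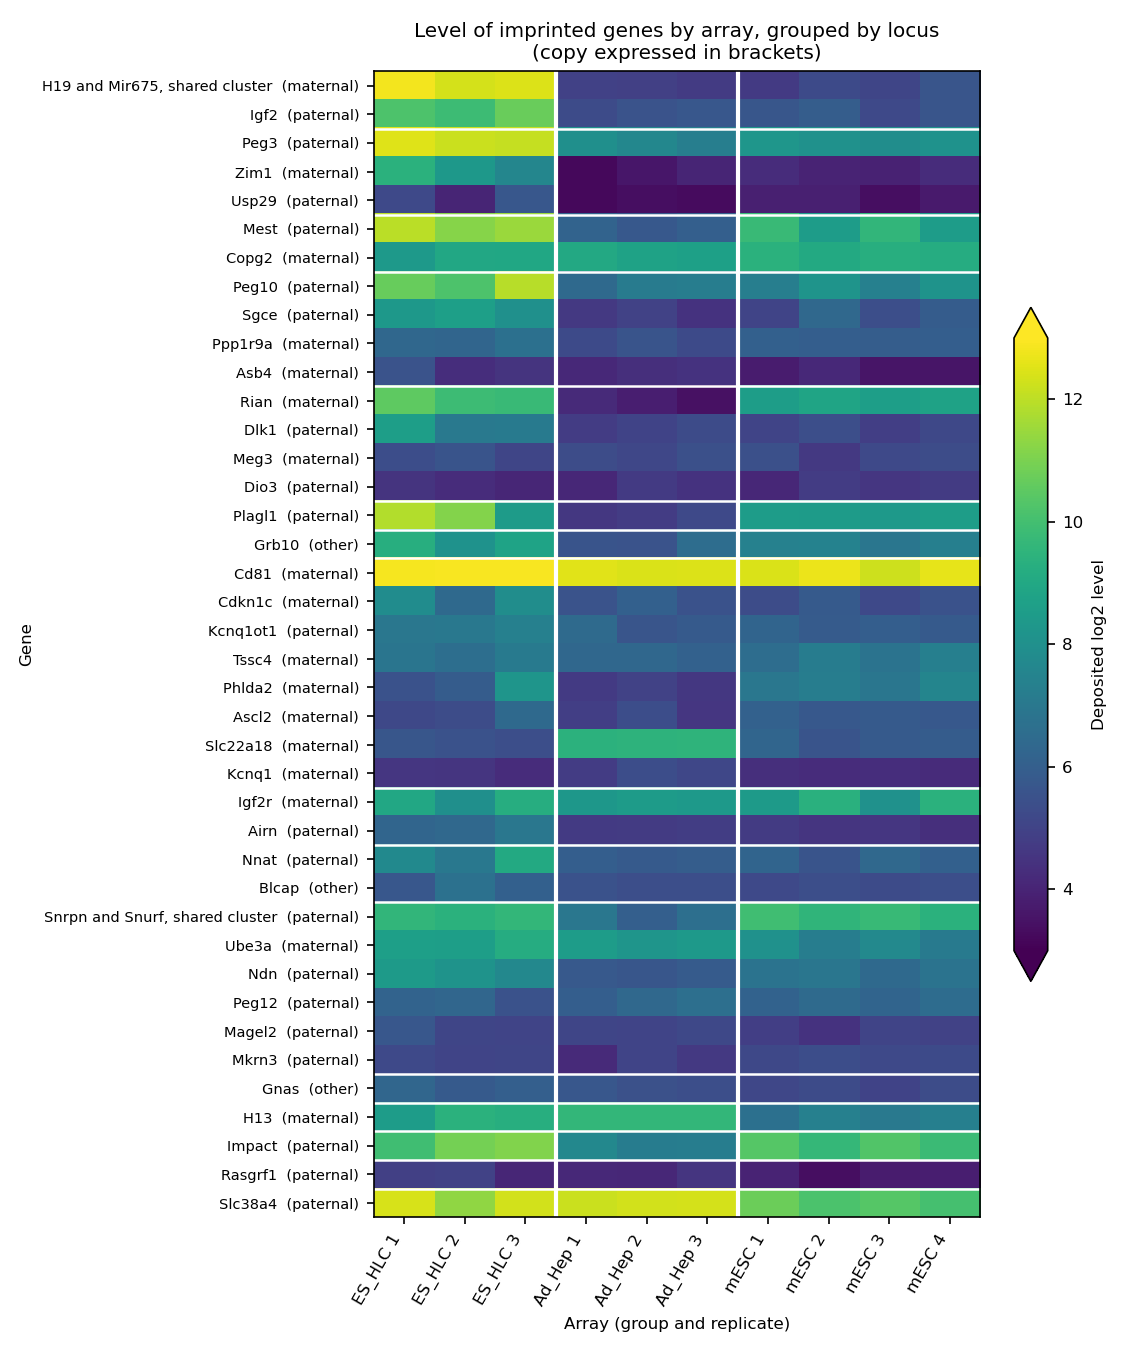
Deposited log2 level (colour) of each imprinted gene (rows, grouped by locus, with the copy expressed in brackets) on each of the 10 arrays (columns). The 3 ES_HLC columns are lighter than the others at Igf2 and H19, Peg3 and Zim1, Mest, Peg10 and Sgce, while Slc22a18 is light only in the 3 Ad_Hep columns, at 9.43 to 9.49.

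Promoter windows are shown for 6 genes higher in ES_HLC than in mESC, because the protein ZFP57, which keeps methylation on imprinted copies in mouse embryonic stem cells, is known to bind the letters TGCCGC when methylated. The windows run from 250 bases before to 50 bases after a RefSeq transcript start (build GRCm38.p6, 300 bases, 5′ to 3′ on the gene's strand), and capitals mark TGCCGC or, on the other strand, GCGGCA. RefSeq windows were matched for 36 of the 43 genes, 53 windows in all. Windows on the chromosome of Impact were left out of this match but kept among all mouse windows. TGCCGC or GCGGCA was in 10 of the 53 (18.9%), against 11.6% of all 32851 mouse windows. Of the 10, 2 are Mest windows that start 3 bases apart and hold the same matches, so 1 stretch counts in both. These windows held a median of 13 CpG pairs, against 7 in all windows, and the letters searched for contain a CpG themselves. A match is a description of the letters and not evidence of binding, and most control regions lie outside such windows.
Igf2, chr7:142661222-142661521, minus strand: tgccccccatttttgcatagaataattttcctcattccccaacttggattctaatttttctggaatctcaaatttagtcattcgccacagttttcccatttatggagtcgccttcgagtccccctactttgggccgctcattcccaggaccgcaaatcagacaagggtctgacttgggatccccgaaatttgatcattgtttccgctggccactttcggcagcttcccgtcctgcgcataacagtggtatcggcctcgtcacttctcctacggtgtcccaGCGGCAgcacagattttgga
Peg3, chr7:6730370-6730669, minus strand: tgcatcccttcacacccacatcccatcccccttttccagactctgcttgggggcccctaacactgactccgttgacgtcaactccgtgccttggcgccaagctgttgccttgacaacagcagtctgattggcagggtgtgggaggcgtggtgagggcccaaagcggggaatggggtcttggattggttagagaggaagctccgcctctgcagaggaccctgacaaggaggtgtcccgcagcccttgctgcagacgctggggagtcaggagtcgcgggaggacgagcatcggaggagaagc
Zim1, chr7:6696383-6696682, minus strand: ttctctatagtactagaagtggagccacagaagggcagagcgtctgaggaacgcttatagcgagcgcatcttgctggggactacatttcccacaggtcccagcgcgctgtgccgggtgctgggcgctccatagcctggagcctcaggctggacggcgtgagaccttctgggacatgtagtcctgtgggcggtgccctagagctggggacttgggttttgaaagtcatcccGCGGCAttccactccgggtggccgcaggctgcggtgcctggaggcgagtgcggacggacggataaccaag
Mest, chr6:30737800-30738099, plus strand: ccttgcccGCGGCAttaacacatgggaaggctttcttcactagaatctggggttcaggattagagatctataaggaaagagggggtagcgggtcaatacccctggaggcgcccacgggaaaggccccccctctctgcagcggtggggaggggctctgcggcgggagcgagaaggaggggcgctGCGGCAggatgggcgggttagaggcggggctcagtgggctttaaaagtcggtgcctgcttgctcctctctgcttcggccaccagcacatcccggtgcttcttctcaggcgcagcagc
Plagl1, chr10:13090582-13090881, plus strand: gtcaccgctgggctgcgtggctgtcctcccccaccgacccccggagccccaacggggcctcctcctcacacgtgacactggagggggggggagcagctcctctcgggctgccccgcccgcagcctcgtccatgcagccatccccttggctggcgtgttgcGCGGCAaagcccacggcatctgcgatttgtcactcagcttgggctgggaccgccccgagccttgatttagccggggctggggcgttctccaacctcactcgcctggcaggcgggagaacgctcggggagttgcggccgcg
Nnat, chr2:157559828-157560127, plus strand: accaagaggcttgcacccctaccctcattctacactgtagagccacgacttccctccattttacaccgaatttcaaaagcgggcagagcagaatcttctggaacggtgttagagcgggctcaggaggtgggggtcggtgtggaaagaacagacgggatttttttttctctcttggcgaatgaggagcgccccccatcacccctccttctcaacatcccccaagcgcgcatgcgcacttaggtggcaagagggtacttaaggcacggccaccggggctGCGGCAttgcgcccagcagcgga
The Mest window shown held 2 matches, those of Igf2, Zim1, Plagl1 and Nnat held 1 each, and that of Peg3 held 0. For Igf2 and Mest, which have windows at several starts, the one shown is one that holds a match: the other 3 Igf2 windows held 0, and of the other 2 Mest windows the overlapping one held 2 and the other 0. Among genes with a window, 6 of 17 that rose in ES_HLC against mESC had a match in at least 1 window (the 5 just named and Grb10). Of 16 that were not called, 2 had one (Copg2 and Meg3). The genes shown thus hold a match more often than all those that rose. The share per gene over all mouse genes was not computed, and a gene with more windows has more places for a match. Whether matches go with the rise was not tested. The windows of Peg3 and Usp29 lie on opposite strands and share 263 bases.

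The Igf2 and H19 locus held the largest differences of all members in ES_HLC against mESC. Igf2 encodes a fetal growth factor read from the paternal copy, and H19 is a noncoding RNA from the maternal copy that carries the microRNA miR-675. Igf2 had levels of 10.20, 9.84 and 10.73 in ES_HLC, against 5.27, 5.57 and 5.72 in Ad_Hep and 5.67, 5.94, 5.21 and 5.65 in mESC. The ES_HLC arrays were high, and Ad_Hep and mESC overlapped near the dim level. The difference was 4.64 ± 0.23 against mESC (24.9-fold, adjusted p = 3.21e-08) and 4.74 ± 0.25 against Ad_Hep (26.7-fold, adjusted p = 7.12e-09), each ± being a standard error of limma. The cluster annotated with both H19 and Mir675 had 12.81, 12.37 and 12.47 in ES_HLC, against 4.93, 4.89 and 4.72 in Ad_Hep and 4.70, 5.23, 5.09 and 5.63 in mESC. Its difference was 7.39 ± 0.21 against mESC (168-fold, adjusted p = 1.21e-08) and 7.70 ± 0.23 against Ad_Hep (209-fold, adjusted p = 8.18e-10), in a fit over all 41345 clusters. In that fit 12.3% of clusters were called in ES_HLC against mESC (6.73% higher, 5.52% lower), 16.8% in ES_HLC against Ad_Hep (10.2% higher, 6.54% lower) and 20.1% in Ad_Hep against mESC (8.25% higher, 11.8% lower). Levels under 5.5, where 48.8 to 50.5% of all genes lay in each group, were taken as dim. The array's floor was not measured, and a fold from a dim level can be understated. Mir483, a microRNA gene inside Igf2, averaged 7.05 in ES_HLC, 7.78 in Ad_Hep and 7.16 in mESC and was called in no comparison. The mature arms of the microRNA read together with H19 are shown with the seed (bases 2 to 8) in capitals, since this was the cluster with the largest difference.
mmu-miR-675-5p: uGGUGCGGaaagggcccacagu
mmu-miR-675-3p: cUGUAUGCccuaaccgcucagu

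At the Peg3 locus all 3 measured genes rose in ES_HLC, although they are read from different copies. Peg3, a paternally expressed zinc finger gene, had 12.53, 12.19 and 12.13 in ES_HLC, against 7.97, 7.62 and 7.28 in Ad_Hep and 8.27, 8.05, 7.90 and 8.10 in mESC. Its difference was 4.20 ± 0.19 against mESC (18.4-fold, adjusted p = 1.50e-08) and 4.66 ± 0.20 against Ad_Hep (25.3-fold, adjusted p = 1.12e-09). Zim1, a zinc finger gene expressed from the maternal copy, had 9.37, 8.34 and 7.60 in ES_HLC, against 3.23, 3.60 and 4.03 in Ad_Hep and 4.25, 3.99, 3.95 and 4.26 in mESC. The ES_HLC arrays were all high but spread over more than 1 unit, and the other arrays were dim. Zim1 differed by 4.32 ± 0.33 from mESC (20.0-fold, adjusted p = 1.06e-06) and by 4.81 ± 0.36 from Ad_Hep (28.1-fold, adjusted p = 2.26e-07). Usp29, a ubiquitin protease gene that shares the Peg3 promoter region, had 5.20, 4.02 and 5.71 in ES_HLC, against 3.21, 3.36 and 3.3 in Ad_Hep and 3.88, 3.87, 3.38 and 3.72 in mESC. Usp29 rose by 1.26 ± 0.31 against mESC (adjusted p = 0.00762), but its mean was under 5.5 in every group. Without ES_HLC replicate 3 its difference was 0.90 and not called. A further cluster, annotated with both Peg3 and Peg3os, had means of 8.45 in ES_HLC, 4.76 in Ad_Hep and 5.29 in mESC, a difference of 3.16 ± 0.17 from mESC (adjusted p = 5.55e-07). The cluster annotated with both Zim3 and Usp29 did not rise. Its means were 3.86 in ES_HLC, 4.08 in Ad_Hep and 4.22 in mESC, and it was called in no comparison.

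**Figure D3:**
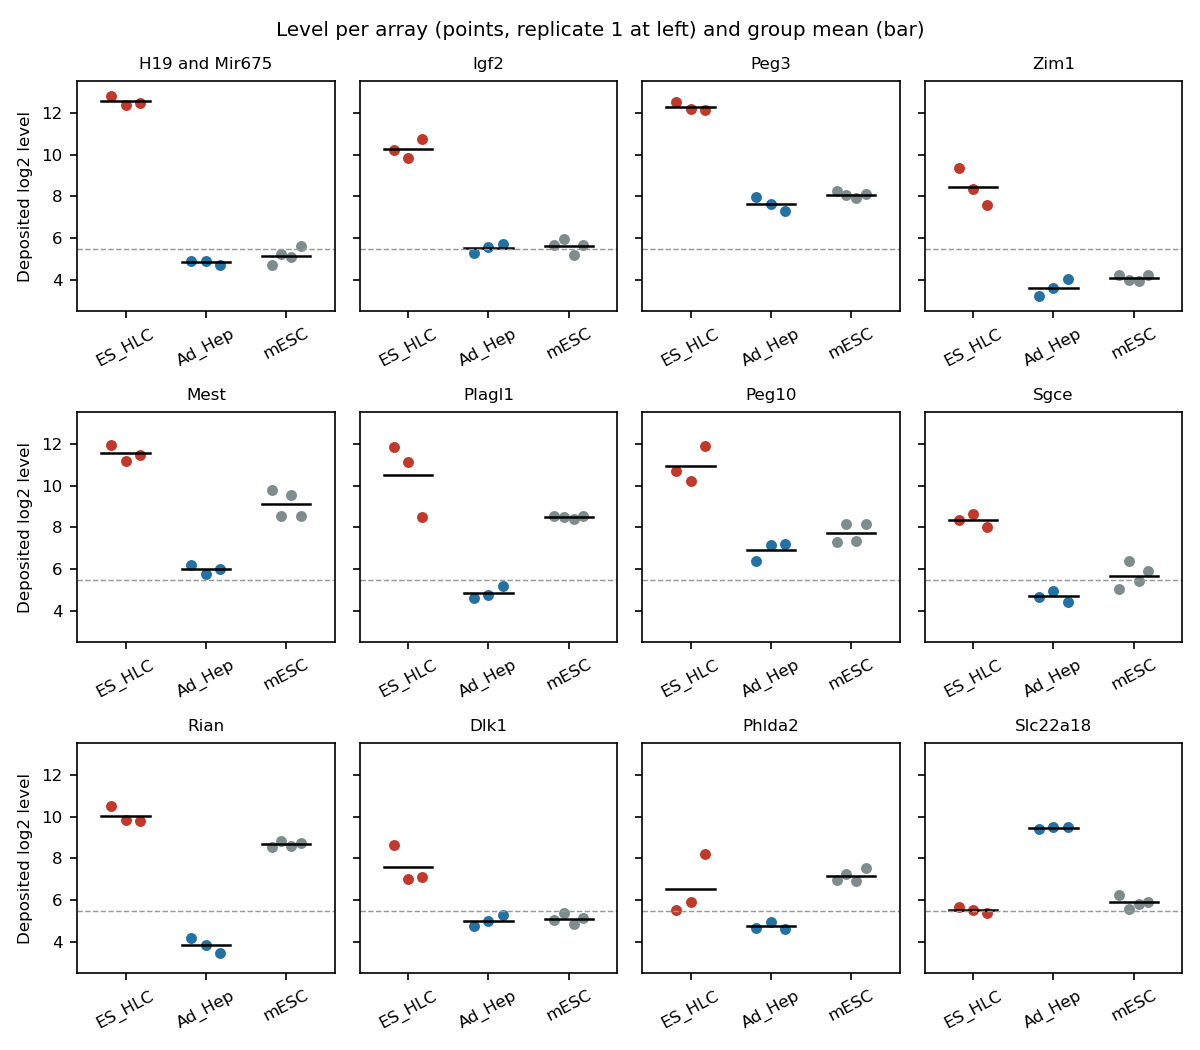
Deposited log2 level (vertical axis) of 12 imprinted genes or clusters on each array (points) with the group mean (bar); the dashed line marks 5.5. All 3 ES_HLC points lie above all others for 9 of the panels, whereas Plagl1 and Phlda2 spread within ES_HLC and Slc22a18 is high only in Ad_Hep.

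Mest and the Peg10 and Sgce pair are paternally expressed genes on chromosome 6. Mest, a mesoderm-specific hydrolase family gene, had 11.96, 11.18 and 11.48 in ES_HLC, against 6.18, 5.75 and 6.03 in Ad_Hep and 9.79, 8.54, 9.57 and 8.53 in mESC. The 3 groups did not overlap, with Ad_Hep lowest, and mESC replicates 1 and 3 lay about 1 unit above replicates 2 and 4. Mest differed by 2.43 ± 0.31 between ES_HLC and mESC (adjusted p = 7.89e-05), by 5.55 ± 0.34 between ES_HLC and Ad_Hep (47.0-fold, adjusted p = 3.01e-08) and by -3.12 ± 0.31 between Ad_Hep and mESC (adjusted p = 3.16e-06). Its neighbour Copg2, a coat protein gene expressed from the maternal copy in some tissues, averaged 8.77 ± 0.36 in ES_HLC, 8.82 ± 0.18 in Ad_Hep and 9.23 ± 0.13 in mESC (SD, n = 3, 3 and 4) and was not called.

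Peg10, a retrotransposon-derived gene needed for the mouse placenta, had 10.68, 10.20 and 11.91 in ES_HLC, against 6.40, 7.17 and 7.22 in Ad_Hep and 7.28, 8.17, 7.36 and 8.15 in mESC. It rose by 3.19 ± 0.38 against mESC (9.13-fold, adjusted p = 4.04e-05) and by 4.00 ± 0.40 against Ad_Hep (adjusted p = 4.77e-06). Sgce, epsilon-sarcoglycan, which starts next to Peg10 on the opposite strand, had 8.34, 8.66 and 8.02 in ES_HLC, against 4.67, 4.97 and 4.45 in Ad_Hep and 5.07, 6.37, 5.42 and 5.92 in mESC. It rose by 2.64 ± 0.28 against mESC (adjusted p = 1.55e-05) and by 3.64 ± 0.30 against Ad_Hep (adjusted p = 6.40e-07). In both genes mESC replicates 1 and 3 lay below replicates 2 and 4, the reverse of Mest. This split was not particular to these loci, since Igf2r, Impact and Ube3a were also divided by these replicates. Over all clusters, mESC replicates 1 and 3 correlated at 0.9852 and 2 and 4 at 0.9811, the other mESC pairs at 0.9683 to 0.9804. What sets these arrays apart was not tested. Of the 2 maternally expressed genes beside them, Ppp1r9a, a gene for an actin-binding protein of neurons, had 6.35, 6.26 and 6.70 in ES_HLC, against 5.26, 5.59 and 5.26 in Ad_Hep and 6.08, 5.98, 5.95 and 6.0 in mESC. Ppp1r9a rose by 1.07 ± 0.17 in ES_HLC against Ad_Hep (adjusted p = 2.50e-04), and the difference was 0.94 without ES_HLC replicate 3. Asb4, a gene for a ubiquitin ligase adaptor, had 5.54, 4.31 and 4.49 in ES_HLC, against 4.15, 4.34 and 4.47 in Ad_Hep and 3.75, 4.15, 3.58 and 3.58 in mESC. Asb4 passed the threshold against mESC narrowly, at 1.01 ± 0.27 (adjusted p = 0.0115), and lost the call in 6 of the alternatives, leaving out ES_HLC replicate 1 among them.

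Along the Dlk1 to Dio3 region, ES_HLC was the highest of the 3 groups at most transcript clusters. Dlk1, a Notch-family ligand that marks fetal hepatoblasts, had 8.62, 7.03 and 7.13 in ES_HLC, against 4.76, 5.0 and 5.28 in Ad_Hep and 5.04, 5.39, 4.85 and 5.17 in mESC. It rose by 2.48 ± 0.32 against mESC (adjusted p = 8.43e-05) and by 2.58 ± 0.34 against Ad_Hep (adjusted p = 5.92e-05). Rian, a maternally expressed noncoding RNA that hosts small nucleolar RNAs, had 10.52, 9.85 and 9.79 in ES_HLC, against 4.19, 3.85 and 3.46 in Ad_Hep and 8.55, 8.83, 8.61 and 8.76 in mESC. The groups did not overlap, and Rian had the largest differences of the 38 genes in both comparisons with Ad_Hep: 6.22 ± 0.23 for ES_HLC (74.5-fold, adjusted p = 2.89e-10) and -4.86 ± 0.22 for Ad_Hep against mESC (28.9-fold, adjusted p = 1.23e-09). Against mESC it rose in ES_HLC by 1.36 ± 0.22 (adjusted p = 3.90e-04).

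Meg3, the noncoding RNA at the start of the maternally expressed transcripts, was read differently by its clusters. Its cluster with 1 symbol averaged 5.35 ± 0.25 in ES_HLC, 5.31 ± 0.16 in Ad_Hep and 5.16 ± 0.35 in mESC (SD, n = 3, 3 and 4) and was called in no comparison. The cluster annotated with Meg3 and Mir770 had 8.77, 7.92 and 8.07 in ES_HLC, against 4.75, 4.94 and 5.60 in Ad_Hep and 6.50, 6.84, 6.53 and 6.86 in mESC. It rose by 1.57 ± 0.25 in ES_HLC against mESC (adjusted p = 0.00109) and fell by 1.59 ± 0.25 in Ad_Hep against mESC (adjusted p = 4.58e-04). The cluster annotated with Meg3, Mir1906-1 and Mir1906-2 had 10.22, 9.39 and 8.51 in ES_HLC, against 4.97, 4.17 and 3.66 in Ad_Hep and 6.80, 6.78, 6.62 and 6.96 in mESC, a rise of 2.58 ± 0.38 against mESC (adjusted p = 5.58e-04). Which transcript each of these clusters reads was not tested. Clusters shared with Rtl1, a paternally expressed retrotransposon-derived gene of placental vessels whose transcript lies opposite several microRNA genes, had group means under 6 in 5 of 6 cases. Of these, the cluster with Mir434 rose in ES_HLC against mESC by 1.79 ± 0.21 and that with Mir136 and Mir3071 by 1.41 ± 0.20. The cluster with Mir432 had means of 8.42 in ES_HLC, 6.29 in Ad_Hep and 7.81 in mESC. Of 3 clusters shared with Mirg, a noncoding host of microRNAs, the one with Mir485 rose in ES_HLC against mESC (1.09 ± 0.22, adjusted p = 0.00509), a call lost without ES_HLC replicate 1 (0.91) or replicate 3 (0.98). Dio3, which inactivates thyroid hormone, averaged 4.29 in ES_HLC, 4.43 in Ad_Hep and 4.56 in mESC and was called in no comparison.

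The microRNA genes of the region that passed the test went in the direction of Rian and the 2 shared Meg3 clusters. Of 61 listed, 43 had a cluster of their own, and arrays of this kind read the gene or its precursor with few probes, not the mature microRNA. In ES_HLC against mESC 7 of 43 rose and 0 fell (16.3%), near the 16.0% of all genes called either way and above the 8.61% called higher. The same 7 were the calls among all 48 small RNA genes measured in imprinted loci, where the count was 11 without ES_HLC replicate 2 or without ES_HLC replicate 3, and 4 with dim genes left out. In ES_HLC against Ad_Hep 15 of 43 rose and 0 fell (34.9%), against 13.9% of all genes called higher, and in Ad_Hep against mESC 0 rose and 5 fell (11.6%), against 15.6% of all genes called lower. The median difference was 0.62 in ES_HLC against mESC, 0.76 in ES_HLC against Ad_Hep and -0.13 in Ad_Hep against mESC, and 18 of 43 in ES_HLC, 9 in Ad_Hep and 9 in mESC had a mean of at least 5.5. Over the 59 clusters drawn from Dlk1 to Dio3, ES_HLC had the highest mean at 53, where it had the highest mean for 27.2% of all genes. Some of these gaps were small or at dim levels. At Mir668 (5.42) and Mir409 (5.45) the printed means of ES_HLC and mESC were the same.

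**Figure D4:**
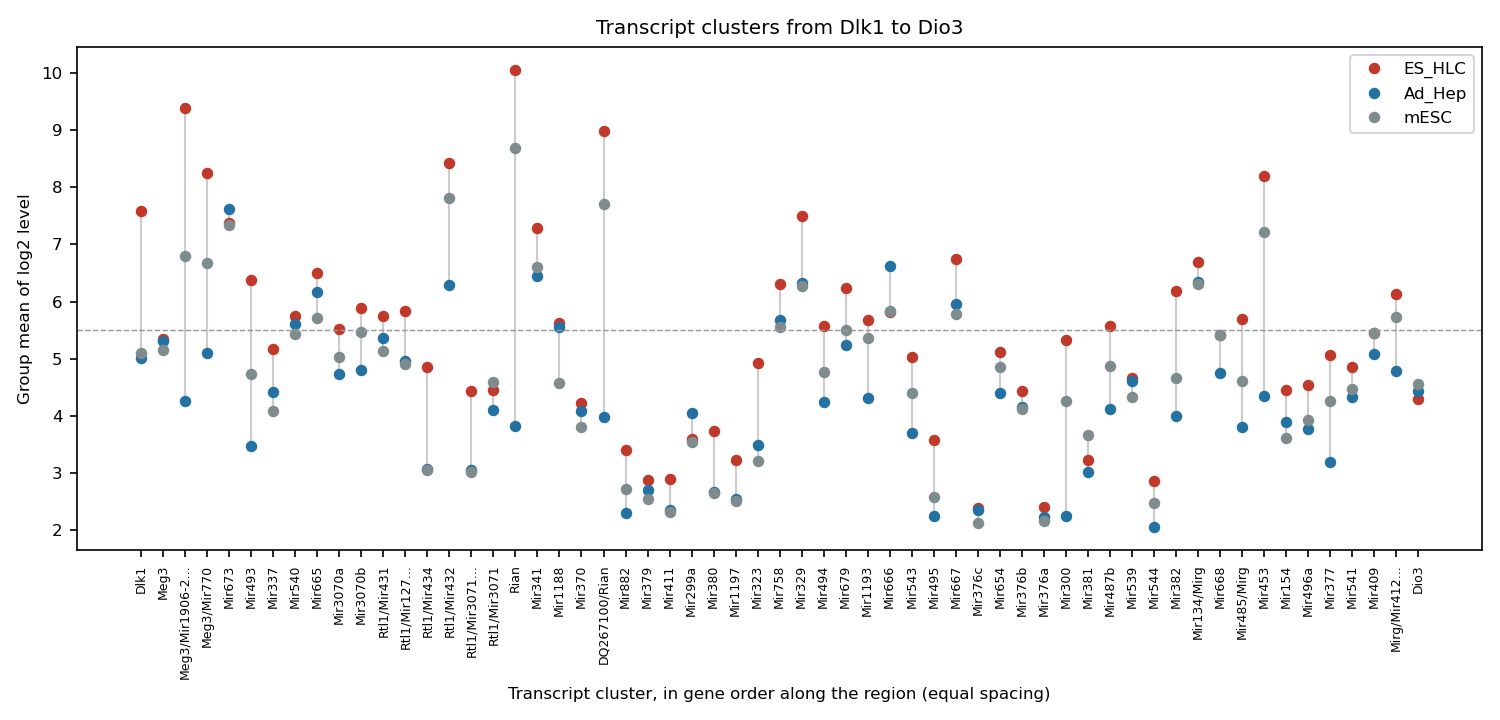
Group mean of the log2 level (vertical axis) at 59 transcript clusters from Dlk1 to Dio3 (horizontal axis, in gene order with equal spacing; a slash marks a cluster with more than 1 symbol). The ES_HLC point is the highest at 53 clusters, though about level with mESC at Mir668 and Mir409. The widest gaps to Ad_Hep are at Rian, at a Meg3 cluster and at the second Rian cluster.

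Mir453 had 8.80, 7.60 and 8.18 in ES_HLC, against 4.56, 4.38 and 4.10 in Ad_Hep and 7.10, 7.84, 6.76 and 7.18 in mESC. It was higher in ES_HLC than in Ad_Hep by 3.85 ± 0.31 (14.4-fold, adjusted p = 5.27e-07) and lower in Ad_Hep than in mESC by a difference of -2.87 ± 0.29 (adjusted p = 3.20e-06), whereas ES_HLC and mESC overlapped. Mir300 had 6.67, 4.40 and 4.93 in ES_HLC, against 2.53, 2.23 and 2.01 in Ad_Hep and 4.10, 4.47, 3.86 and 4.63 in mESC. It differed by 3.07 ± 0.45 between ES_HLC and Ad_Hep (adjusted p = 1.19e-04). Mir493 was called in all 3 comparisons, with 6.94, 5.66 and 6.52 in ES_HLC, against 2.99, 4.10 and 3.32 in Ad_Hep and 4.35, 4.76, 4.77 and 5.07 in mESC. Its differences were 1.64 ± 0.32 for ES_HLC against mESC (adjusted p = 0.0016), 2.90 ± 0.34 for ES_HLC against Ad_Hep (adjusted p = 1.73e-05) and -1.27 ± 0.32 for Ad_Hep against mESC (adjusted p = 0.00545). Mir382 and Mir323 rose in ES_HLC against mESC by 1.52 ± 0.25 and 1.70 ± 0.26, and Mir329, Mir337 and Mir380 by 1.07 to 1.23. Mir377 and Mir1193 fell in Ad_Hep against mESC, with differences of -1.08 and -1.05. Mature sequences of Mir453, Mir300, Mir493, Mir382 and Mir323, which had the 3 largest differences among the microRNA genes called in ES_HLC against mESC or the 4 largest against Ad_Hep, are shown with the seed in capitals (RefSeq, GRCm38.p6, chromosome 12, plus strand), together with miR-496a-5p, which has the seed of miR-453.
mmu-miR-453: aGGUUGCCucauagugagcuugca
mmu-miR-496a-5p: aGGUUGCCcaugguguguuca
mmu-miR-300-5p: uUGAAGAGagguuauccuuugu
mmu-miR-300-3p: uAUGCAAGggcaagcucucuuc
mmu-miR-493-5p: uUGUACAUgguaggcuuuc
mmu-miR-493-3p: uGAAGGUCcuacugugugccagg
mmu-miR-382-5p: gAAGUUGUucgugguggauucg
mmu-miR-382-3p: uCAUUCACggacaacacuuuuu
mmu-miR-323-5p: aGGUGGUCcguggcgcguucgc
mmu-miR-323-3p: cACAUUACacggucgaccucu
The seed GGUUGCC was carried by miR-453 and miR-496a-5p and by no other mature microRNA among the 124 listed for these loci, and the other arms shown each had a seed of their own. Mir496a averaged 4.54 in ES_HLC, 3.78 in Ad_Hep and 3.93 in mESC and was called in no comparison.

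Plagl1 and Grb10 were higher in ES_HLC than in mESC and lower in Ad_Hep than in mESC. Plagl1, a paternally expressed zinc finger transcription factor, had 11.84, 11.13 and 8.49 in ES_HLC, against 4.63, 4.77 and 5.19 in Ad_Hep and 8.53, 8.48, 8.40 and 8.56 in mESC. ES_HLC replicates 1 and 2 were high, and replicate 3 lay within the mESC arrays. The difference from mESC was 2.0 ± 0.57 (adjusted p = 0.0174), and it was not called without ES_HLC replicate 1 (1.32, adjusted p = 0.0789) or without replicate 2 (1.68, adjusted p = 0.08). Without replicate 3 it was 3.00 (adjusted p = 1.91e-06). Against mESC, Ad_Hep fell by 3.63 ± 0.57 (12.4-fold, adjusted p = 1.52e-04), and ES_HLC stood 5.63 ± 0.60 above Ad_Hep (49.4-fold, adjusted p = 8.27e-06), or 6.62 without replicate 3 and 4.95 without replicate 1. Grb10, an adaptor that restrains insulin and growth factor signalling and is maternally expressed in most mouse tissues, had 9.27, 8.10 and 8.80 in ES_HLC, against 5.61, 5.54 and 6.59 in Ad_Hep and 7.38, 7.43, 6.94 and 7.30 in mESC. The groups did not overlap, with differences of 1.46 ± 0.30 for ES_HLC against mESC (adjusted p = 0.00231) and -1.35 ± 0.30 for Ad_Hep against mESC (adjusted p = 0.00236).

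The Kcnq1 locus, with 8 measured genes, was mixed. Cdkn1c, a maternally expressed inhibitor of cyclin-dependent kinases, had 7.87, 6.40 and 7.90 in ES_HLC, against 5.56, 6.06 and 5.53 in Ad_Hep and 5.32, 5.85, 5.19 and 5.53 in mESC, a rise of 1.92 ± 0.32 against mESC (adjusted p = 6.26e-04). Kcnq1ot1, the paternally expressed noncoding RNA known in the mouse to silence its neighbours on the same copy, had 6.98, 7.02 and 7.34 in ES_HLC, against 6.46, 5.65 and 5.82 in Ad_Hep and 6.21, 5.89, 5.98 and 5.85 in mESC. It rose by 1.13 ± 0.20 against mESC (adjusted p = 9.30e-04), and its difference from Ad_Hep, 1.13 ± 0.22, was 0.97 without Ad_Hep replicate 2. The silencing RNA and Cdkn1c thus both stood higher in ES_HLC, and their copies were not distinguished. Slc22a18, a transporter family gene expressed from the maternal copy, went the other way, with 5.68, 5.51 and 5.40 in ES_HLC, against 9.43, 9.48 and 9.49 in Ad_Hep and 6.25, 5.58, 5.83 and 5.92 in mESC. It rose in Ad_Hep against mESC by 3.57 ± 0.17 (11.9-fold, adjusted p = 2.48e-09) and was lower in ES_HLC than in Ad_Hep (-3.94 ± 0.18, adjusted p = 2.23e-09).

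Phlda2, a maternally expressed gene that restrains growth of the placenta, had 5.53, 5.91 and 8.20 in ES_HLC, against 4.68, 4.97 and 4.61 in Ad_Hep and 6.98, 7.25, 6.92 and 7.55 in mESC. ES_HLC replicates 1 and 2 lay below the mESC arrays and replicate 3 above them. The difference from mESC was -0.63 and not called (adjusted p = 0.402), and it was -1.46 and called without replicate 3 (adjusted p = 3.91e-04). It fell by 2.43 ± 0.48 in Ad_Hep against mESC (adjusted p = 0.00105), and its difference between ES_HLC and Ad_Hep, 1.80 ± 0.51 (adjusted p = 0.0145), was 0.97 and not called without ES_HLC replicate 3. Ascl2, a trophoblast transcription factor of the same locus, had 5.17, 5.33 and 6.40 in ES_HLC, highest in replicate 3 too, against 4.86, 5.36 and 4.60 in Ad_Hep and 6.09, 5.75, 5.85 and 5.76 in mESC, and was not called. The mean of the 7 trophoblast markers was also highest in replicate 3, at 6.52, with Eomes, Elf5 and Tpbpa under 5.5 in the ES_HLC mean, and its part in these values was not tested. The remaining genes of the locus, the potassium channel gene Kcnq1, the tetraspanin gene Cd81 and Tssc4, were called in no comparison. Kcnq1 lay higher on all 3 Ad_Hep arrays than on the mESC arrays (5.09 and 4.28 on average) but short of the threshold of 1.

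At Igf2r and Airn, the antisense RNA passed the test in ES_HLC and the coding gene did not. Airn, a paternally expressed RNA known to silence the paternal Igf2r copy in mouse tissues, had 6.25, 6.38 and 6.98 in ES_HLC, against 4.70, 4.75 and 4.82 in Ad_Hep and 4.75, 4.53, 4.57 and 4.33 in mESC. It rose by 1.99 ± 0.19 against mESC (adjusted p = 6.02e-06) and by 1.78 ± 0.20 against Ad_Hep (adjusted p = 1.31e-05). Igf2r, the receptor that removes IGF2 by taking it to lysosomes, had 8.98, 7.98 and 9.24 in ES_HLC, against 8.28, 8.49 and 8.37 in Ad_Hep and 8.45, 9.36, 8.07 and 9.38 in mESC. The groups overlapped and Igf2r was called in no comparison. Its 95% interval for ES_HLC minus mESC ran from -0.84 to 0.67.

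At the Snrpn to Ube3a locus, the brighter Snrpn cluster was low in Ad_Hep and Ndn was high in ES_HLC. The cluster with the higher levels of 2 annotated with both Snrpn, a splicing protein gene, and Snurf had 9.59, 9.39 and 9.62 in ES_HLC, against 6.98, 6.03 and 6.67 in Ad_Hep and 9.95, 9.55, 9.74 and 9.38 in mESC. It fell by 3.10 ± 0.23 in Ad_Hep against mESC (8.56-fold, adjusted p = 9.24e-07), and ES_HLC overlapped mESC. The dimmer of the 2 clusters averaged 5.60 in ES_HLC, 5.24 in Ad_Hep and 5.66 in mESC and was called in no comparison. Ndn, a gene of the MAGE family expressed in neurons, had 8.45, 8.13 and 7.66 in ES_HLC, against 5.79, 5.67 and 5.89 in Ad_Hep and 6.80, 6.92, 6.40 and 6.82 in mESC. It rose by 1.35 ± 0.20 against mESC (adjusted p = 2.37e-04) and by 2.30 ± 0.21 against Ad_Hep (adjusted p = 2.19e-06). Gm26504, the snoRNA gene Snord116 in RefSeq's synonyms, had 7.29, 8.21 and 7.99 in ES_HLC, against 5.39, 5.56 and 5.09 in Ad_Hep and 6.52, 7.28, 7.37 and 7.26 in mESC, and fell by 1.76 ± 0.26 in Ad_Hep against mESC (adjusted p = 8.46e-05). It has 15 clusters with 1 identical set of values, which were counted as 1. Ube3a, a ubiquitin ligase gene imprinted in neurons, had 8.63, 8.61 and 9.20 in ES_HLC, against 8.52, 8.22 and 8.36 in Ad_Hep and 8.04, 7.23, 7.72 and 7.13 in mESC. It rose by 1.28 ± 0.23 against mESC (adjusted p = 0.0011), and the mean over its 2 clusters differed by 0.70. Magel2, Mkrn3 and Peg12, paternally expressed genes of the locus, were called in no comparison and their group means lay between 4.64 and 6.34.

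Nnat, a paternally expressed proteolipid gene of neural and endocrine cells, had 7.74, 7.02 and 9.07 in ES_HLC, against 5.97, 5.83 and 5.96 in Ad_Hep and 6.24, 5.58, 6.36 and 6.06 in mESC, a rise of 1.88 ± 0.37 against mESC (adjusted p = 0.00179). Blcap, the gene in which Nnat lies, averaged 6.17 ± 0.50 in ES_HLC, 5.45 ± 0.06 in Ad_Hep and 5.33 ± 0.11 in mESC (SD, n = 3, 3 and 4), short of the threshold. Of 6 neural markers (among them Tubb3 and Nes) the list mean was 6.07 to 6.55 in ES_HLC, 4.98 to 5.24 in Ad_Hep and 5.70 to 5.78 in mESC, with Pax6 under 5.5 in all groups. Whether such cells bear on Nnat and Ndn was not tested.

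The genes higher in Ad_Hep than in mESC were few. Slc38a4, a paternally expressed amino acid transporter of liver and placenta, had 12.39, 11.35 and 12.31 in ES_HLC, against 12.20, 12.31 and 12.37 in Ad_Hep and 10.76, 10.18, 10.35 and 10.04 in mESC. It rose by 1.68 ± 0.25 in ES_HLC (adjusted p = 2.44e-04) and by 1.96 ± 0.25 in Ad_Hep (adjusted p = 2.72e-05) against mESC. H13, a signal peptide peptidase gene, had 8.54, 9.37 and 9.28 in ES_HLC, against 9.62, 9.61 and 9.64 in Ad_Hep and 6.71, 7.37, 7.03 and 7.30 in mESC. It rose by 1.96 ± 0.22 in ES_HLC (adjusted p = 2.69e-05) and by 2.52 ± 0.22 in Ad_Hep (adjusted p = 9.17e-07) against mESC, and a further, dim H13 cluster was flat at 4.70 to 4.76. Impact, a paternally expressed regulator of translation, had 9.95, 10.91 and 11.09 in ES_HLC, against 7.67, 7.20 and 7.24 in Ad_Hep and 10.38, 9.66, 10.30 and 9.83 in mESC, and fell by 2.67 ± 0.28 in Ad_Hep against mESC (adjusted p = 4.07e-06). Gnas, which encodes a G protein subunit, and Rasgrf1, an exchange factor for Ras, were higher on all 3 ES_HLC arrays than on the mESC arrays, by 0.86 ± 0.16 and 0.90 ± 0.23, short of the threshold of 1, which Rasgrf1 passed without ES_HLC replicate 3 (1.18, adjusted p = 0.00107). A cluster annotated with both Gnas and its antisense Gnasas1 averaged 6.08 in ES_HLC, 4.66 in Ad_Hep and 6.18 in mESC and fell by 1.53 ± 0.27 in Ad_Hep against mESC (adjusted p = 9.92e-04). In all, 8 genes had a mean under 5.5 in every group: Kcnq1, Usp29, Asb4, Dio3, Meg3, Magel2, Mkrn3 and Rasgrf1. A low reading there says only that the cluster was dim.

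Neighbours within a locus were set against each other by the difference of their log2 levels on each array, in 10 pairs fixed for the 3 comparisons, 30 exact 2-sided permutation tests in all. With 3 against 4 arrays this exact test cannot go below p = 0.0286, and with 3 against 3 it cannot go below 0.1, and after adjustment over the 30 tests none passed, the smallest adjusted p being 0.107. Mest minus Copg2 was 2.77 ± 0.75 in ES_HLC and -0.13 ± 0.55 in mESC (SD, n = 3 and 4). Igf2r minus Airn was 2.20 ± 0.57 in ES_HLC and 4.27 ± 0.79 in mESC. Igf2 minus the cluster of H19 and Mir675 was -2.29 ± 0.48 in ES_HLC and 0.46 ± 0.46 in mESC, without overlap. Peg3 minus Zim1 was 3.85 ± 0.68 in ES_HLC, 4.00 ± 0.75 in Ad_Hep and 3.96 ± 0.10 in mESC, and the 3 groups overlapped.

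The 38 imprinted genes spread more between ES_HLC replicates than all genes did, without matching for level. The median of the gene means in ES_HLC was 7.49 for the 38 and 5.58 for all genes. The median SD of the 38 genes was 0.42 in ES_HLC, 0.20 in Ad_Hep and 0.25 in mESC, and that of all genes was 0.24 in ES_HLC, 0.22 in Ad_Hep and 0.21 in mESC. An SD of at least 0.8 within ES_HLC was found for 8 of 38 (21.1%), against 3.81% of all genes: Plagl1, Phlda2, Nnat, Zim1, Dlk1, Peg10, Usp29 and Cdkn1c. Plagl1, Zim1 and Dlk1 were highest in ES_HLC replicate 1, which also had the highest mean of the stellate and fibroblast markers (9.94). Phlda2, Nnat, Peg10 and Usp29 were highest in replicate 3, and Cdkn1c was lowest in replicate 2. No test of these differences between single arrays is possible, and the part of cell composition in them was not tested.

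Genes that keep, write or remove DNA methylation at imprints were mostly lower in ES_HLC than in mESC. Of 19 such genes, 2 rose and 10 fell in ES_HLC against mESC (63.2% called), 0 rose and 12 fell in Ad_Hep against mESC (63.2%), and 9 rose and 0 fell in ES_HLC against Ad_Hep (47.4%). Of all genes, 16.0%, 26.6% and 23.0% were called in these comparisons, with 7.35% lower in the first, 15.6% lower in the second and 13.9% higher in the third. Zfp57 had 7.82, 7.99 and 7.31 in ES_HLC, against 5.43, 6.51 and 5.63 in Ad_Hep and 8.93, 8.86, 9.17 and 8.62 in mESC. Trim28, the cofactor through which ZFP57 acts, had 10.12, 9.60 and 10.15 in ES_HLC, against 8.27, 8.64 and 8.39 in Ad_Hep and 11.55, 11.64, 11.60 and 11.62 in mESC. The groups did not overlap for either gene, with ES_HLC between the others. The largest falls in ES_HLC against mESC were those of Tet1, an enzyme that oxidises methylated cytosine (-3.08 ± 0.35, adjusted p = 2.71e-05), Uhrf1, which guides the maintenance methylase to newly copied DNA (-3.07 ± 0.28, adjusted p = 4.52e-06), Dnmt3b, a de novo methylase (-2.38 ± 0.41, adjusted p = 7.58e-04), and Hells, a chromatin remodeller (-2.14 ± 0.41, adjusted p = 0.00145). Dnmt1, the maintenance methylase, averaged 8.99 in ES_HLC, 6.76 in Ad_Hep and 10.07 in mESC. The 2 that rose were Tet3 (1.46 ± 0.20) and Arid4b (1.17 ± 0.35). Trim28, Tet3 and Arid4b were named after their values were seen. DNA methylation itself was not measured.

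**Figure D5:**
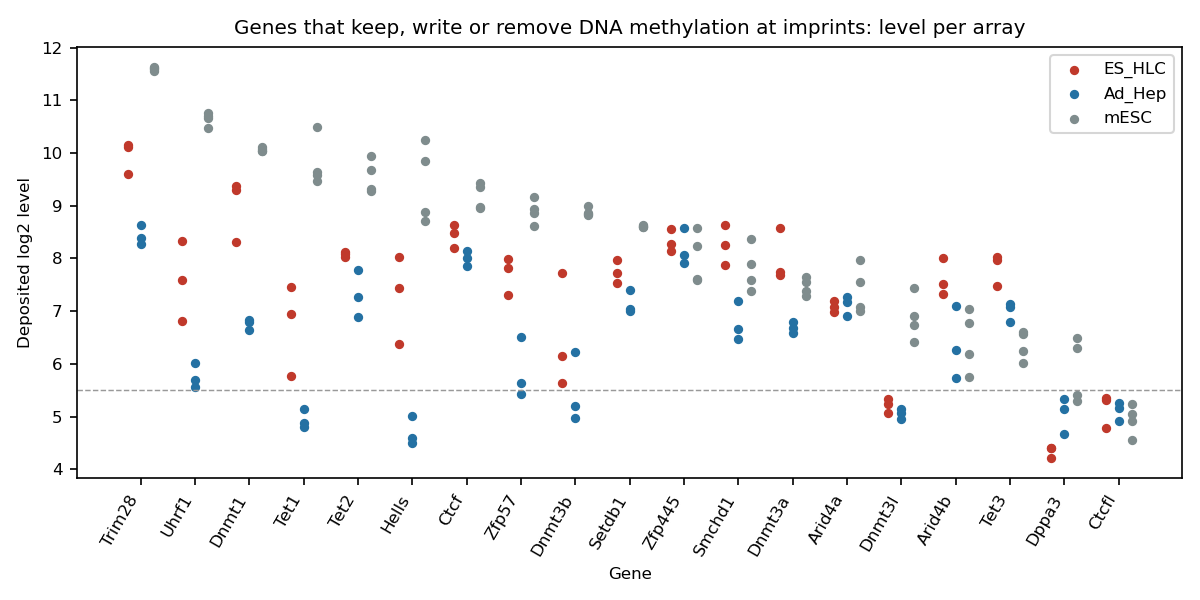
Deposited log2 level (vertical axis) of 19 genes that act on DNA methylation at imprints (horizontal axis) on each array (points, by group); the dashed line marks 5.5. For Trim28, Uhrf1, Dnmt1 and Zfp57 the ES_HLC points lie between those of Ad_Hep and mESC, without overlap.

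Genes around IGF2 signalling and the silencing of fetal genes in postnatal liver were described from a list of 15, of which 13 were measured. In ES_HLC against mESC 8 rose and 0 fell (61.5% called), in Ad_Hep against mESC 6 rose and 5 fell (84.6%), and in ES_HLC against Ad_Hep 6 rose and 3 fell (69.2%), where 16.0%, 26.6% and 23.0% of all genes were called. Afp, a fetal liver plasma protein gene, had 9.13, 9.30 and 6.69 in ES_HLC, against 4.90, 4.77 and 4.99 in Ad_Hep and 4.53, 4.93, 4.63 and 4.41 in mESC, so it was high in ES_HLC with Igf2 and H19 but lower in replicate 3, where Igf2 was not. Gpc3, a cell-surface proteoglycan of fetal liver, had 10.47, 9.21 and 9.43 in ES_HLC, against 4.67, 5.34 and 4.95 in Ad_Hep and 7.34, 7.61, 7.11 and 7.30 in mESC. Igf1, the growth factor made by postnatal liver, had 5.29, 5.12 and 5.34 in ES_HLC, against 11.0, 10.61 and 10.70 in Ad_Hep and 4.84, 4.66, 4.69 and 5.08 in mESC, the reverse of Igf2. Irs1, an adaptor of the insulin and IGF receptors, averaged 8.06 in ES_HLC, 7.79 in Ad_Hep and 4.97 in mESC. The receptor gene Igf1r averaged 8.72 in ES_HLC, 5.22 in Ad_Hep and 7.12 in mESC, while Insr, the insulin receptor gene, averaged 7.72 in ES_HLC, 9.61 in Ad_Hep and 6.51 in mESC. Igf2bp3, a fetal RNA-binding protein gene, averaged 9.85 in ES_HLC, 5.07 in Ad_Hep and 9.80 in mESC. Zhx2 and Zbtb20, repressors of Afp and other fetal genes in adult mouse liver, rose in ES_HLC against mESC by 1.88 ± 0.17 and 1.07 ± 0.21, and in Ad_Hep against mESC by 2.65 ± 0.17 and 3.07 ± 0.21.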

How the data were processed

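Total RNA of 10 samples was extracted with TRIzol, cleaned on RNeasy MinElute columns and labelled with biotin for Affymetrix transcript arrays, per the labels' protocols. The deposited values are log2 levels, 1 per transcript cluster and array, for 41345 clusters; RMA, the Transcriptome Analysis Console, R 3.3.1 and oligo 1.38.0 are listed, without roles, in the submitters' processing notes. The genome build is not given in the sources used here. The values were used as deposited. Array medians were 4.91 to 5.07, and 3 or 4 arrays a group limit the precision. No scan date or batch was used here.

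Gene symbols came from the platform annotation: 23521 clusters had 1 symbol, 1814 several and 16010 none. The cluster with the highest mean over the arrays stood for each of 22180 genes. The 3 groups were fitted together with limma 3.58.1 (R 4.3.3; lmFit and eBayes, 7 residual degrees of freedom), with Benjamini-Hochberg adjustment over all genes, and the calculation was tested on simulated data. Genes were called at a log2 difference of 1 or more with the adjusted p under 0.05. Clusters shared by several genes were fitted over all 41345 clusters, a step added after the annotation was seen. Exact permutation tests ran over every split of the arrays of the groups compared, in Python 3.11.15 with numpy 2.4.6. The t quantiles of the 95% intervals came from scipy 1.17.1.

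All imprinted genes on the list were to be named, with array values for those called; of the other gene lists, up to 4 called genes per comparison by size of difference, and of small RNA genes up to 6. The genes, lists and rules were chosen with earlier results of these data known. Replicate numbers are shared between groups, but same-numbered arrays did not deviate together (correlations of deviations from -0.185 to 0.137), so no pairing was used. Alternatives tried were median centring, a second quantile normalization, leaving out dim genes, other cluster choices, a trended and robust variance, fits of 2 groups alone, a replicate block, the adjusted p alone, and leaving out each array. RefSeq promoter windows and microRNAs are of build GRCm38.p6.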

Additional observations from a re-analysis of the deposited data

Results flagged for a closer look

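Single arrays far from the rest of their group were looked for among the 4 mESC arrays, the only group large enough, in 56 genes or clusters of imprinted loci, where chance alone gives about 1 in 20. The cluster annotated with both DQ267100 and Rian read 8.1 on mESC replicate 3, against 7.54 to 7.62 on the other mESC arrays. The dimmer of the 2 clusters annotated with Snrpn and Snurf read 5.37 on mESC replicate 4, against 5.73 to 5.78 on the other mESC arrays. The Rian cluster with 1 symbol and the brighter Snrpn cluster did not show a single mESC array apart.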

How the results depend on the processing

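Of the calls on imprinted genes in ES_HLC against mESC, 15 of 20 were kept under every alternative run. In Ad_Hep against mESC, 9 of 9 were kept. In ES_HLC against Ad_Hep, 17 of 20 were kept under every alternative that tested the gene. Usp29, 1 of these 17, had a mean under 5.5 in every group and was absent from the fit with dim genes left out. No call turned its direction. The calls lost in at least 1 alternative were those of Usp29, Asb4, Ube3a, H13 and Plagl1 against mESC and of Kcnq1ot1, Phlda2 and Ppp1r9a against Ad_Hep; those of Ube3a (0.70) and H13 (0.95) were lost with the mean over a gene's clusters, each gene having a second, dim cluster. With the adjusted p alone, without the log2 difference of 1, Ad_Hep against mESC had 17 calls among imprinted genes (7 paternally and 9 maternally expressed), small RNA genes had 19 in ES_HLC against mESC, 12 in Ad_Hep against mESC and 28 in ES_HLC against Ad_Hep, and all genes had 6390, 9205 and 8003. With dim genes left out, small RNA genes had 4 calls in ES_HLC against mESC and 9 in ES_HLC against Ad_Hep. With every cluster of 1 symbol counted, small RNA genes had 20 calls in Ad_Hep against mESC and 30 in ES_HLC against Ad_Hep, the identical Gm26504 clusters among them.

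Leaving out 1 array at a time gave 19 to 21 imprinted genes called in ES_HLC against mESC, 9 to 11 in Ad_Hep against mESC and 18 to 20 in ES_HLC against Ad_Hep, and 5 to 11 small RNA genes in ES_HLC against mESC, with 11 without ES_HLC replicate 2 or without ES_HLC replicate 3. With the replicate block, 19, 9 and 20 imprinted genes were called in that order, the same counts within 1; the numbers do not pair the arrays. Leaving out 1 array also brought calls that the full fit did not make: Phlda2 (-1.46) and Rasgrf1 (1.18) without ES_HLC replicate 3 and Blcap (1.07) without ES_HLC replicate 1, against mESC, and, in Ad_Hep against mESC, Sgce (-1.09 to -1.21 without Ad_Hep replicate 2, mESC replicate 1 or mESC replicate 3), Ndn (-1.01 without Ad_Hep replicate 3, -1.06 without mESC replicate 3), Ascl2 (-1.13 without Ad_Hep replicate 2) and Ube3a (1.01 without mESC replicate 1). The tests of neighbour pairs are too small to speak of stability. Signal limits the genes under 5.5, where a difference may be understated.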

Other observations

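A second list of 45 imprinted or candidate imprinted mouse genes, of which 40 were measured, had medians near 0 in all 3 comparisons. In ES_HLC against mESC 6 rose and 6 fell (30.0% called, median difference 0.02), in Ad_Hep against mESC 9 rose and 6 fell (37.5%, 0.06), and in ES_HLC against Ad_Hep 7 rose and 8 fell (37.5%, 0.00). Of all genes, 16.0% were called in ES_HLC against mESC, 26.6% in Ad_Hep against mESC and 23.0% in ES_HLC against Ad_Hep. No test of the 2 lists against each other was made.

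The largest rise of this list in ES_HLC against mESC was that of Tnfrsf23, a decoy receptor gene beside the Kcnq1 locus, which averaged 9.58 in ES_HLC, 5.68 in Ad_Hep and 4.51 in mESC (5.07 ± 0.39 against mESC, adjusted p = 1.01e-06). Dcn, the gene of the matrix proteoglycan decorin, averaged 7.13 in ES_HLC, 9.03 in Ad_Hep and 3.87 in mESC. Cobl, an actin nucleator gene next to Grb10, averaged 5.49 in ES_HLC, 7.38 in Ad_Hep and 8.29 in mESC, the opposite direction to Grb10 in ES_HLC against mESC. Near Peg10 and Sgce, the paraoxonase gene Pon3 averaged 4.88 in ES_HLC, 9.99 in Ad_Hep and 4.98 in mESC, Tfpi2, a protease inhibitor gene, averaged 4.53 in ES_HLC, 8.89 in Ad_Hep and 3.94 in mESC, and Pon2 averaged 7.57 in ES_HLC, 8.29 in Ad_Hep and 4.93 in mESC. Pon3 and Tfpi2 were thus high only in Ad_Hep, where Peg10 and Sgce were lowest. Smoc1, a matrix protein gene, averaged 6.26 in ES_HLC, 10.27 in Ad_Hep and 8.50 in mESC.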
